A study of Mus musculus with 6 samples.

Results

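The immunity-related GTPases are interferon-inducible GTPases of mouse cells, and 7 of them are described here: Irgm1, Irgm2, Igtp, Iigp1, Tgtp1, Tgtp2 and Ifi47. They were taken by gene symbol from the 32285 genes of the deposited single-cell matrices, and all 7 symbols were found. The data are 6 droplet libraries of cells from the colons of transplanted mice, 1 library per group. The first pair holds sorted donor CD11b+ CD64+ macrophages from GVHD mice, which received bone marrow together with spleen cells and so serve as the graft-versus-host disease group, and from BM mice, which received bone marrow alone. The second pair holds the same donor population from transplanted recipients with an IL-34-/- genotype, here the library labelled IL34KO, and from WT recipients. The third pair holds sorted donor T cells of the same recipient genotypes, labelled IL34KO and WT. All groups are transplanted mice, and the labels give no strain, age, graft dose, day after transplant or number of animals pooled. In the IL-34-/- groups the label applies to the recipient, so the donor cells are not described as lacking the gene. Epithelial cells found in these libraries lie outside the sorted donor populations, and whether they came from donor or recipient was not tested. The study asked how macrophages in the colon differ between BM and GVHD mice, and whether IL-34 acts on macrophages and on the T cells found there.

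In mice, interferon-γ acting through its receptor turns on a large set of GTPases, of which the immunity-related GTPases are best known for defence of the single cell against vacuolar parasites and bacteria. Irgm1, Irgm2 and Igtp (also called Irgm3) are the regulators of the family: they sit on host membranes and keep the other members in their inactive, GDP-bound state there. Iigp1 (Irga6), the copies Tgtp1 and Tgtp2 (Irgb6) and Ifi47 (Irgd) are the effectors, which load onto the membrane of a pathogen vacuole and help to break it, together with guanylate-binding proteins and the Atg8 conjugation machinery. In the intestine these genes are made both by macrophages and by epithelial cells exposed to interferon-γ.

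Apart from Iigp1, the members lie on mouse chromosome 11 (build mm10, annotation GENCODE M21, all protein-coding). Irgm1 spans 48861968 to 48871683 on the minus strand, Tgtp1 spans 48985327 to 48994172 and Tgtp2 spans 49057194 to 49064206, both on the minus strand, and Ifi47 spans 49076587 to 49096974 on the plus strand. Igtp spans 58199556 to 58207591 and Irgm2 spans 58199618 to 58222782, both on the plus strand, so that these genes overlap and share 162 exonic bases. Tgtp1 also overlaps Gm12185 on its strand, and Ifi47 overlaps Olfr56. The effect of these overlaps on the counts was not tested. Of the 2774 stretches of 50 bases in the longest coding transcript of Tgtp1, 2480 (89.4%) occur unchanged in that of Tgtp2. The split of reads between the copies is therefore uncertain, and their sum is given as well. That sum may itself be too low, because a read that matches both copies may be counted for neither. For Igtp against Irgm2 the count of shared stretches was 219 of 1973 (11.1%), and it was 0 for Igtp with Irgm1, Irgm1 with Irgm2, Iigp1 with Tgtp1 and Ifi47 with Tgtp1.

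The promoters of 6 members (all but Iigp1) were in the RefSeq table (GRCm38.p6, 250 bases before to 50 after the RefSeq start). They are shown as a description of the sequence. For Irgm2 and Tgtp1 the RefSeq start lies well inside the GENCODE span given above. Their windows are 58214727 to 58215026 and 48992197 to 48992496. Matches to GAAANNGAAA on either strand, the core of the interferon-stimulated response element, are in capitals, with 30 bases on each side of the first match, 5′ to 3′ on the strand of the gene.
Irgm1, chr11:48871411-48871480: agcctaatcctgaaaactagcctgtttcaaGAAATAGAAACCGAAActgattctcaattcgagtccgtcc
Irgm2, chr11:58214883-58214952: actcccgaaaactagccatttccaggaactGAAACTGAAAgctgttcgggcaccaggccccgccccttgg
Igtp, chr11:58199492-58199561: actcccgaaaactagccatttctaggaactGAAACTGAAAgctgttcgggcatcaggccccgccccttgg
Tgtp1, chr11:48992284-48992353: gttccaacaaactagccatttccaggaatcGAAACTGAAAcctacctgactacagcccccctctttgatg
Tgtp2, chr11:49064243-49064312: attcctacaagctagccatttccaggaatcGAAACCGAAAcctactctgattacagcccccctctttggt
In Irgm1 the capitals cover 2 overlapping matches, of which the second runs into the 30 bases after the first. The first match starts at -30 from the RefSeq start in Irgm1, -64 in Irgm2, -34 in Igtp, -77 in Tgtp1 and -70 in Tgtp2. The letters GAAANNGAAA were found in 5 of the 6 member promoters and in 1131 of 32851 promoters of the same length (3.44%). The promoter of Ifi47 held no match, which says only that these letters are not in its window. Iigp1 and Ifi47, the measured members furthest apart between GVHD and BM in myeloid cells, thus have no stretch shown. Any link between these letters and the levels given below was not tested.

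The stretches from Irgm2 and Igtp were the same at 68 of 70 positions (97.1%), and those from Tgtp1 and Tgtp2 at 49 of 70. The Irgm1 stretch was the same as any other at 21 to 24 of 70 positions. The letters TTCNNNGAA, the core of the interferon-γ-activated site, were in the windows of Irgm2, Igtp, Tgtp1 and Tgtp2 (4 of 6 members, against 2726 promoters, 8.30%). A match is a description of the sequence and not a measured binding site.

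Cells were assigned by markers to a myeloid, a T and an epithelial gate. The 6 libraries held 25985 myeloid, 5553 T and 3275 epithelial cells after filtering. Myeloid cells were 87.1% of filtered cells in the GVHD library, 84.7% in BM, 69.8% in the IL34KO and 82.4% in the WT macrophage library. In the libraries labelled T cells, the myeloid gate took 52.8% (IL34KO) and 57.6% (WT) of filtered cells and the T gate 20.6% and 21.9%, so most cells there do not carry the markers of the labelled sort. Between BM and GVHD, 2502 cell barcodes (42.6% of those in BM) were common, against 5 to 75 in the other 14 library pairs, and they were dropped from BM. Il34 was listed at 2.30 CPM (counts-per-million units of all UMIs, the molecules counted by their unique identifiers) in the IL34KO and 1.76 CPM in the WT macrophage library, and at 1.55 CPM in the IL34KO and 1.18 CPM in the WT T-cell library, so transcript level does not separate those labels. It was 0.482 CPM in GVHD and 1.47 CPM in BM.

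Each value below is the number of unique molecular identifiers (UMIs) of a gene, summed over the cells of a gate in 1 library and scaled to CPM of all UMIs in those cells. With 1 library per group there is no test of a difference between conditions: brackets give exact 95% intervals that cover counting error only, and a gene is called higher or lower past 1.5-fold where 1 of the 2 libraries has at least 5 CPM. Whether a difference comes from the condition, the animals or the making of the library cannot be told apart. UMIs are counted at transcript ends and were not divided by length, so levels of different genes are set side by side only as UMIs.

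Myeloid cells of all 6 libraries held the whole family, at 476 CPM (471 to 482) in GVHD, 128 CPM (124 to 132) in BM, 639 CPM (633 to 645) in the IL34KO and 542 CPM (537 to 548) in the WT macrophage library, and 538 CPM (531 to 546) in the IL34KO and 507 CPM (501 to 512) in the WT T-cell library. BM was the lowest by far and the IL34KO macrophage library the highest. The WT macrophage and IL34KO T-cell libraries are neighbours in that order whose intervals overlap. Iigp1, an effector that coats Toxoplasma vacuoles and whose gene lies on chromosome 18, supplied 45.4% of these UMIs in GVHD and 34.5% in BM, 48.2% in the IL34KO and 47.5% in the WT macrophage library. Ifi47 supplied 27.0% in GVHD, 27.9% in the IL34KO and 29.9% in the WT macrophage library. As counted, the Tgtp copies were the smallest contributors, at 8.75 to 10.6 CPM together outside BM and 3.43 CPM in BM. Reads that match both copies may be missing from these values.

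**Figure D1:**
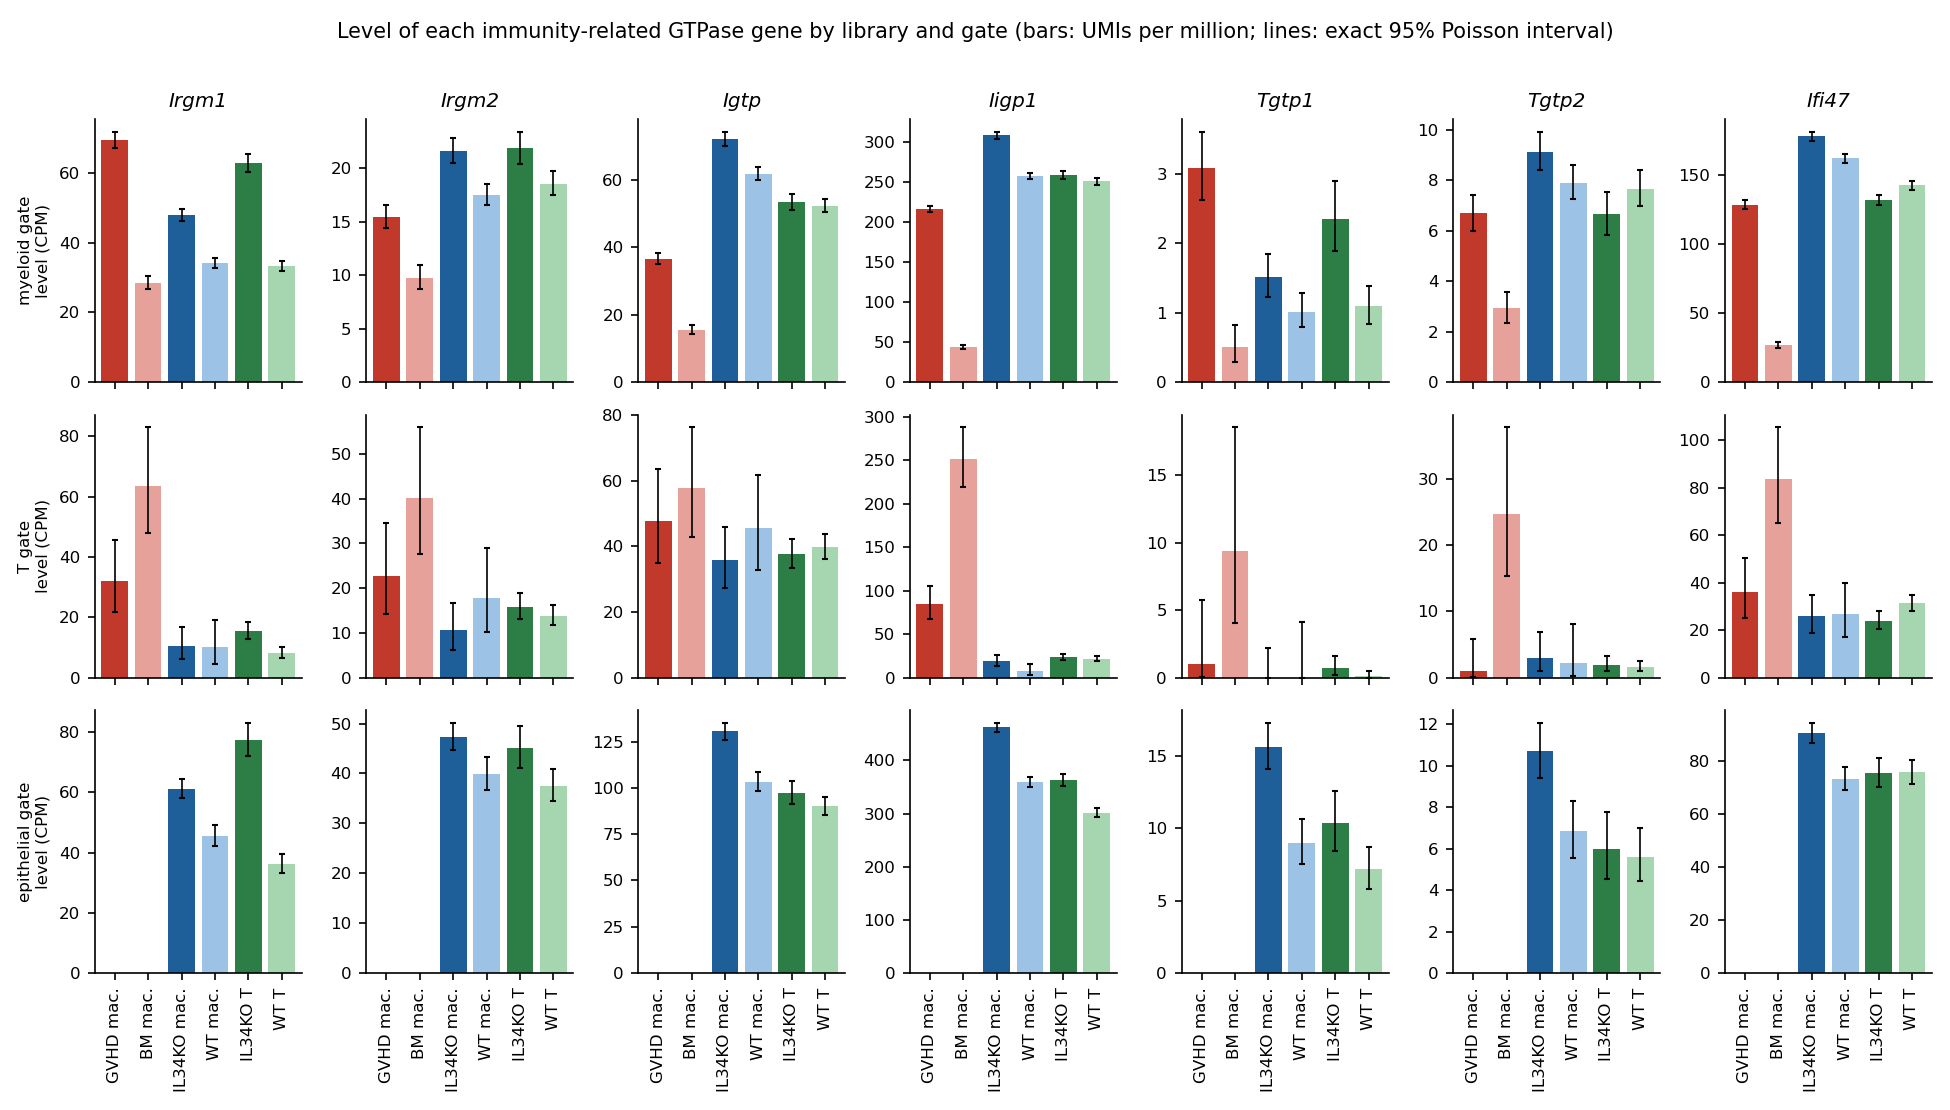
Level of each member in CPM of summed UMIs (y axes) for the myeloid, T and epithelial gates, with 1 bar per library and exact 95% Poisson intervals; units under 50 cells are not drawn. Iigp1 in myeloid cells stands at 216 CPM in GVHD and 44.3 CPM in BM, and in T cells of the WT macrophage library at 7.77 CPM.

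In the macrophage comparison between GVHD and BM mice, all 6 members that reached the level minimum were higher in GVHD myeloid cells, and none was lower. Among the 9905 genes measured there, 15.0% were called higher and 19.3% lower. Of those calls 43.7% were higher, and 59.5% with TMM or 60.3% with median-of-ratios scaling. The family was 3.71-fold higher in GVHD (3.59 to 3.84), from 24662 UMIs in GVHD and 4038 in BM. The median log2 ratio of the members was 1.26, and that of all genes was -0.01.

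The effectors Iigp1 and Ifi47 stood furthest apart of the measured members. Iigp1 had 216 CPM in GVHD and 44.3 CPM in BM, a 4.89-fold difference (4.62 to 5.17). Ifi47 had 129 CPM in GVHD and 26.9 CPM in BM, a 4.79-fold difference (4.46 to 5.15). Tgtp1 and Tgtp2 together had 9.78 CPM in GVHD and 3.43 CPM in BM, a 2.85-fold difference (2.31 to 3.54). Taken apart, Tgtp2 had 6.68 CPM in GVHD and 2.92 CPM in BM, 2.29-fold (1.81 to 2.91), and Tgtp1, at 3.09 CPM in GVHD and 0.509 CPM in BM, stayed under the level minimum.

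The regulators were higher in GVHD by less than Iigp1 and Ifi47, and Irgm1 and Igtp stood near Tgtp2. Irgm1 had 69.5 CPM in GVHD and 28.4 CPM in BM, 2.45-fold (2.27 to 2.64). Igtp had 36.6 CPM in GVHD and 15.6 CPM in BM, 2.35-fold (2.13 to 2.60). Irgm2 had 15.5 CPM in GVHD and 9.76 CPM in BM, 1.58-fold (1.39 to 1.81), the smallest ratio of the measured members. The make-up of the family therefore differed: Irgm1 supplied 14.6% of family UMIs in GVHD and 22.1% in BM, and Igtp 7.68% in GVHD and 12.1% in BM.

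The difference was present in each myeloid subset with at least 50 cells in both libraries. In cells high in the complement genes C1qa, C1qb and C1qc, a mark of mature tissue macrophages, the family had 475 CPM in GVHD and 124 CPM in BM, 3.82-fold. In the remaining myeloid cells it had 459 CPM in GVHD and 187 CPM in BM, 2.45-fold. Cycling cells gave 3.46-fold and cells not cycling 3.88-fold. Irgm2 was within 1.5-fold in the cycling cells (1.37) and in the remaining cells (1.26), and Iigp1 was 1.71-fold in the remaining cells, with 223 CPM in GVHD and 131 CPM in BM. Fibroblast markers moved the other way in the same gate, at 10.7 CPM in GVHD and 145 CPM in BM, and without the cells carrying at least 2 UMIs of fibroblast or endothelial markers (stromal-marked cells) the family ratio was 3.85. The B and plasma-cell list summed to 2.74 CPM in GVHD and 119 CPM in BM, with 6 of 6 genes present in GVHD and 5 of 6 in BM, and its part was not tested.

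**Figure D2:**
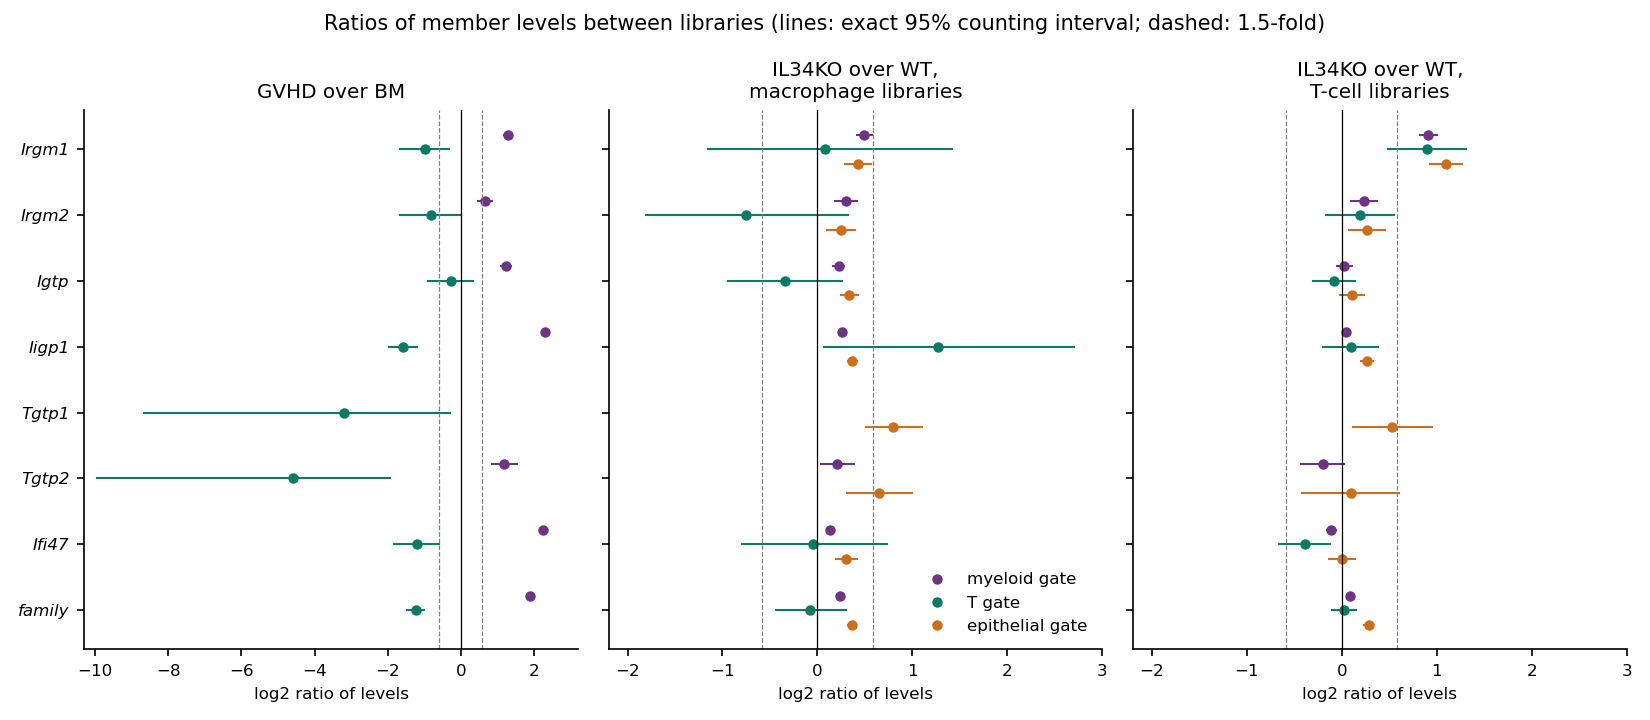
Log2 ratio of CPM for each member and for the family (rows) in the 3 comparisons (GVHD over BM, IL34KO over WT macrophage libraries, IL34KO over WT T-cell libraries), coloured by gate, with exact 95% intervals for counting error and dashed lines at 1.5-fold. Members under the level minimum are not drawn and the left panel has a wider axis. Myeloid points lie right of 0 for each of the 6 measured members in GVHD over BM, while in the IL34KO comparison of T-cell libraries Irgm1 stands past the line in all 3 gates.

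T-gated cells of the same libraries showed the opposite order. Of the 7 members, 6 were lower in GVHD than in BM and none was higher, where 18.6% of 11207 genes were called lower and 21.6% higher. The family had 226 CPM in GVHD (218 UMIs in 177 cells) and 531 CPM in BM (451 UMIs in 120 cells), 2.35-fold lower in GVHD (2.00 to 2.78). Iigp1 had 84.9 CPM in GVHD and 252 CPM in BM, 2.97-fold lower in GVHD, and Ifi47 had 36.2 CPM in GVHD and 83.6 CPM in BM, 2.31-fold lower. These effectors and the regulator Irgm1 share the direction: Irgm1 had 32.1 CPM in GVHD and 63.6 CPM in BM, 1.98-fold lower in GVHD. Igtp, at 47.6 CPM in GVHD and 57.7 CPM in BM, was within 1.5-fold, and the interval of the Irgm2 difference (22.8 CPM in GVHD, 1.76-fold lower) reached no difference.

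A few cells carried much of this signal. Stromal-marked cells were 8 of the 177 T-gated cells in GVHD and 10 of the 120 in BM, and the family stood in them at 1150 CPM in GVHD and 2160 CPM in BM. The fibroblast list summed to 1480 CPM in the GVHD T gate and 2059 CPM in the BM T gate, with 6 of 6 markers present in both. It was at 0 for 6 of 6 markers in the T gate of the WT macrophage library. Without the stromal-marked cells the family had 76.9 CPM in GVHD (64 UMIs) and 161 CPM in BM (111 UMIs), a ratio of 0.479. Iigp1 then had 9.61 CPM in GVHD (8 UMIs) and 7.23 CPM in BM (5 UMIs), so its direction was not kept, while the ratio was 0.249 for Irgm1, 0.451 for Ifi47 and 0.767 for Igtp.

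Within each library but BM, T cells held less of the family than myeloid cells, and the make-up was different. The family was 6.11-fold higher in myeloid than in T-gated cells of the IL34KO macrophage library, 4.93-fold in the WT macrophage library, 4.54-fold in the IL34KO T-cell library and 4.34-fold in the WT T-cell library. GVHD gave 2.11-fold, or 6.19-fold without stromal-marked T cells, and BM 0.242, or 0.800 without them. In T cells of the IL34KO and WT T-cell libraries the family had 119 CPM (111 to 127) and 117 CPM (111 to 123), which do not differ beyond counting error.

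The members that separated least between T and myeloid cells were the regulators Igtp and Irgm2. The T-gate level of Igtp was 49.6% of the myeloid level in the IL34KO macrophage library, 73.6% in the WT macrophage library, 70.4% in the IL34KO T-cell library and 75.9% in the WT T-cell library. For Irgm2 the same figures were 48.9%, 101.5%, 72.1% and 74.3%. For the effector Iigp1 they were 6.09%, 3.02%, 9.02% and 8.71%. The regulator Irgm1, at 22.02%, 29.29%, 24.41% and 24.68%, stood nearer to the effectors Ifi47 and Tgtp2 than to Igtp and Irgm2. Ifi47 was at 14.49%, 16.42%, 18.17% and 22.03%, and Tgtp2 at 32.1%, 28.1%, 29.1% and 21.1%. Tgtp2 had only 5 and 2 UMIs in T cells of the IL34KO and WT macrophage libraries. The order of the members therefore did not follow the split into regulators and effectors. The 8 myeloid transcripts kept out of the gates (Lyz2, Ctss, Tyrobp, Fcer1g, C1qa, C1qb, C1qc and Apoe), a measure of free RNA, stood at 3.32%, 3.23%, 2.51% and 3.56% of their myeloid level, so Iigp1 in T cells of the WT macrophage library was at that background. In T cells of those 4 libraries Igtp was the leading member, with 34.3% of family UMIs in the IL34KO and 41.4% in the WT macrophage library, and 31.7% in the IL34KO and 34.0% in the WT T-cell library. Igtp supplied 7.68% to 12.1% of the family in myeloid cells.

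**Figure D3:**
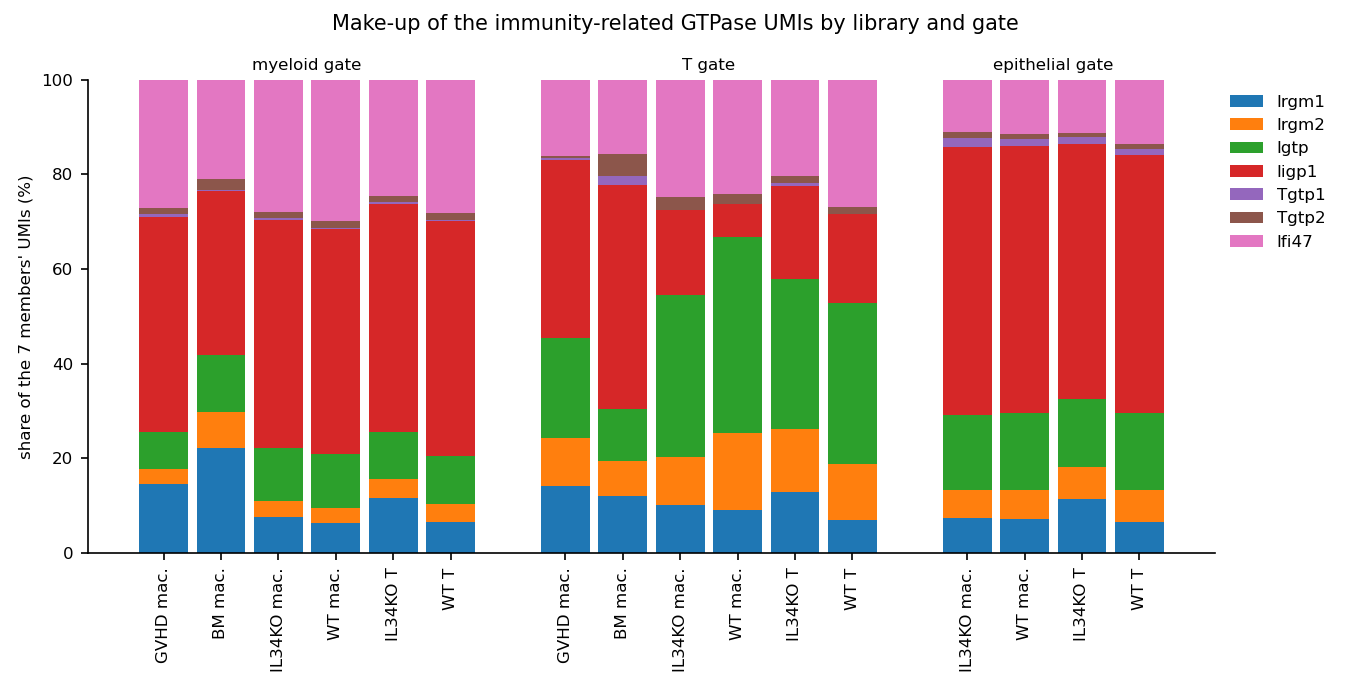
Share of family UMIs taken by each member (stacked bars, percent) in each library and gate with at least 50 cells. In myeloid cells Iigp1 takes 45.4% in GVHD and 34.5% in BM, while in T cells of the WT T-cell library Igtp takes 34.0% and Iigp1 18.7%.

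Epithelial-gated cells, mostly from the IL34KO and WT libraries, held the family at levels above their own myeloid cells. The family had 819 CPM (807 to 830) in the IL34KO and 637 CPM (624 to 650) in the WT macrophage library, and 675 CPM (658 to 691) in the IL34KO and 554 CPM (542 to 567) in the WT T-cell library. The epithelial level was 1.28-fold, 1.17-fold, 1.25-fold and 1.09-fold that of myeloid cells of the same 4 libraries. Iigp1 alone made up 53.8% to 56.5% of family UMIs there. Counted alone, Tgtp1 was the member most shifted toward epithelium, at 15.6 CPM in the IL34KO and 8.97 CPM in the WT macrophage library. These levels were 1035% and 885% of its myeloid level, which was 1.01 CPM in the WT library, under the level minimum. Tgtp2 stood at 117% and 86.5% of its myeloid level, and Ifi47 at 50.9% and 45.2%. The Tgtp copies together were 1.77-fold their myeloid level in the WT macrophage library, less than Irgm2 at 2.275-fold. The GVHD library held 38 epithelial cells, with 603 CPM from 387 family UMIs, and the BM library held 10 such cells with 5 family UMIs, too few to compare.

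Among macrophage libraries of the recipient genotypes, no member was past 1.5-fold in myeloid cells, and all 7 had point estimates above 1 in the IL34KO library. Of 9239 genes measured, 0.952% were called higher and 1.66% lower in the IL34KO library, and 0 of 6 members. The family had 639 CPM in the IL34KO and 542 CPM in the WT macrophage library, 1.18-fold (1.16 to 1.20). Irgm1 had 48.0 CPM in the IL34KO and 34.1 CPM in the WT library, 1.41-fold (1.33 to 1.49), the largest ratio of the measured members. Iigp1 had 308 CPM in the IL34KO and 258 CPM in the WT library, 1.20-fold (1.17 to 1.22), and Ifi47 had 178 CPM and 162 CPM, 1.10-fold (1.07 to 1.13). Neutrophil markers moved with this comparison in the myeloid gate, with 6 of 6 present and a sum of 3872 CPM in the IL34KO and 1998 CPM in the WT macrophage library. Their part in the member ratios was not tested.

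By subset, the family in the IL34KO over the WT macrophage library was 1.13-fold in C1q-high cells (614 CPM and 542 CPM), 1.17-fold in Ly6c2 cells, which are nearer to blood monocytes (783 CPM and 668 CPM), and 1.31-fold in the remaining cells (581 CPM and 444 CPM). Each of those 3 family ratios lies under 1.5. Ly6c2 cells held more of the family than C1q-high cells in the IL34KO (1.27-fold) and WT (1.23-fold) macrophage libraries, in GVHD (1.13-fold) and in the IL34KO T-cell library (1.07-fold), and less in the WT T-cell library (0.924).

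Epithelial cells of the macrophage libraries showed the same direction, with the copies Tgtp1 and Tgtp2 past the threshold. Tgtp1 had 15.6 CPM in the IL34KO and 8.97 CPM in the WT macrophage library, 1.74-fold (1.42 to 2.14), and Tgtp2 had 10.7 CPM in the IL34KO and 6.83 CPM in the WT library, 1.57-fold (1.24 to 1.99). They were the 2 of 7 members called higher, and 0 were lower, against 2.63% higher and 1.23% lower of 10515 genes. Because the split of reads between these copies is uncertain, they cannot be read as 2 separate calls. Of those calls over all genes 68.2% were higher, and 56.1% with TMM scaling. Iigp1 had 462 CPM in the IL34KO and 359 CPM in the WT library, 1.29-fold (1.25 to 1.33). Irgm1 was 1.34-fold, Igtp 1.26-fold, Ifi47 1.24-fold and Irgm2 1.19-fold. The family was 1.31-fold in goblet cells, with 859 CPM in the IL34KO and 653 CPM in the WT library, and 1.18-fold in epithelial cells that were neither goblet nor absorptive. Neutrophil markers, 6 of 6 present, summed to 369 CPM in the IL34KO and 139 CPM in the WT epithelial gate, and their part was not tested.

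T-gated cells of the macrophage libraries, 285 in the IL34KO and 127 in the WT library, gave 1 member higher and 1 lower of 5 measured, against 11.7% higher and 10.9% lower of 10107 genes. Iigp1 had 18.8 CPM in the IL34KO (32 UMIs) and 7.77 CPM in the WT library (7 UMIs), 2.42-fold with an interval of 1.05 to 6.49. The WT value is at the free-RNA background given above, and after thinning the direction turned, with Iigp1 found in 2.72% of IL34KO and 4.39% of WT cells (6.67% and 4.72% before thinning) and a log2 ratio of level of -0.49. Irgm2 had 10.6 CPM in the IL34KO (18 UMIs) and 17.8 CPM in the WT library (16 UMIs), 1.68-fold lower with an interval that holds no difference. The family had 105 CPM in the IL34KO and 110 CPM in the WT library, a ratio of 0.951 (0.739 to 1.23), so at this depth no difference was detectable. The B and plasma-cell list summed to 1.17 CPM in the IL34KO T gate, with 2 of 6 genes present, and to 1167 CPM in the WT T gate, with 4 of 6 present. Its part in these ratios was not tested.

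In the libraries sorted as T cells, the family in T-gated cells did not differ between the recipient genotypes beyond counting error (ratio 1.02, 0.931 to 1.11). Irgm1 was the 1 of 5 measured members called higher, and 0 were lower, against 2.43% higher and 1.35% lower of 9834 genes. Of the calls over all genes 64.2% were higher, and 48.4% with TMM scaling. Irgm1 had 15.3 CPM in the IL34KO (111 UMIs) and 8.24 CPM in the WT T-cell library (92 UMIs), 1.86-fold (1.40 to 2.48). Ifi47 went the other way within the threshold, with 24.0 CPM in the IL34KO and 31.4 CPM in the WT library, a ratio of 0.765 (0.634 to 0.920). Igtp had 37.6 CPM in the IL34KO and 39.8 CPM in the WT library, and Iigp1 had 23.3 CPM and 21.8 CPM, ratios of 0.945 and 1.07 whose intervals hold no difference.

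Irgm1 stood apart in the other gates of the same libraries too. In myeloid cells it had 62.8 CPM in the IL34KO and 33.4 CPM in the WT T-cell library, 1.88-fold (1.77 to 2.00), the 1 of 6 members called higher where 0.935% of 9195 genes were called higher and 0.446% lower. In epithelial cells Irgm1 had 77.4 CPM in the IL34KO and 36.2 CPM in the WT library, 2.14-fold (1.91 to 2.40), the 1 of 7 members called, against 3.09% higher and 3.04% lower of 10630 genes. There 50.4% of the calls were higher, and 33.9% with TMM scaling. No other measured member passed 1.5-fold in these gates: the family was 1.06-fold (1.04 to 1.08) in myeloid and 1.22-fold (1.18 to 1.26) in epithelial cells.

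The Irgm1 difference was seen in each subset large enough to count. It was 1.92-fold in C1q-high cells, with 64.1 CPM in the IL34KO and 33.5 CPM in the WT T-cell library, 1.80-fold in Ly6c2 cells and 1.63-fold in the remaining myeloid cells. In CD4 T cells Irgm1 had 18.6 CPM in the IL34KO and 8.74 CPM in the WT library, 2.13-fold, and in CD8 T cells it was 1.87-fold. Absorptive epithelial cells had 77.7 CPM in the IL34KO and 29.8 CPM in the WT library, 2.60-fold, and goblet cells were 1.86-fold.

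A difference past 1.5-fold in all 3 gates at once was found for 26 of 7844 genes in the higher direction (0.331%), Irgm1 being the only member, and for 21 in the lower direction (0.268%), of which 7 encode ribosomal proteins. Among the other 25 higher genes were Tap2, a peptide transporter of antigen presentation, Zfp36, an mRNA-binding protein, and Snhg6, a non-coding RNA host gene, named after their values were seen. Of those 25, 21 were also at least 1.5-fold higher in the GVHD than in the WT macrophage library in myeloid cells, where 7.01% of 10045 genes were. A set of 15 was higher in BM than in the WT macrophage library, where 23.4% of genes were, and 14 were in both. Irgm1 itself stood at 2.04 for GVHD over WT and 0.833 for BM over WT. In the macrophage libraries of the recipient genotypes, 10 of 7814 genes (0.128%) were higher in all 3 gates, and no member was. The part that these differences between whole libraries have in the Irgm1 value was not tested.

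Set against Igtp, its fellow regulator, Irgm1 separated the GVHD and BM libraries from the others. In myeloid cells there were 1.90 Irgm1 UMIs per Igtp UMI in GVHD (1.80 to 2.01) and 1.82 in BM (1.63 to 2.04), 0.665 in the IL34KO and 0.552 in the WT macrophage library, and 1.18 in the IL34KO and 0.637 in the WT T-cell library. GVHD and BM did not differ in this ratio beyond counting error, although both genes differed by more than 2-fold between them. In epithelial cells the ratio was 0.469 in the IL34KO and 0.441 in the WT macrophage library, and 0.797 in the IL34KO and 0.402 in the WT T-cell library. The labels name kits that read the 5′ and the 3′ end of transcripts without giving the kit of each library, so kit and library cannot be told apart in these ratios.

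**Figure D4:**
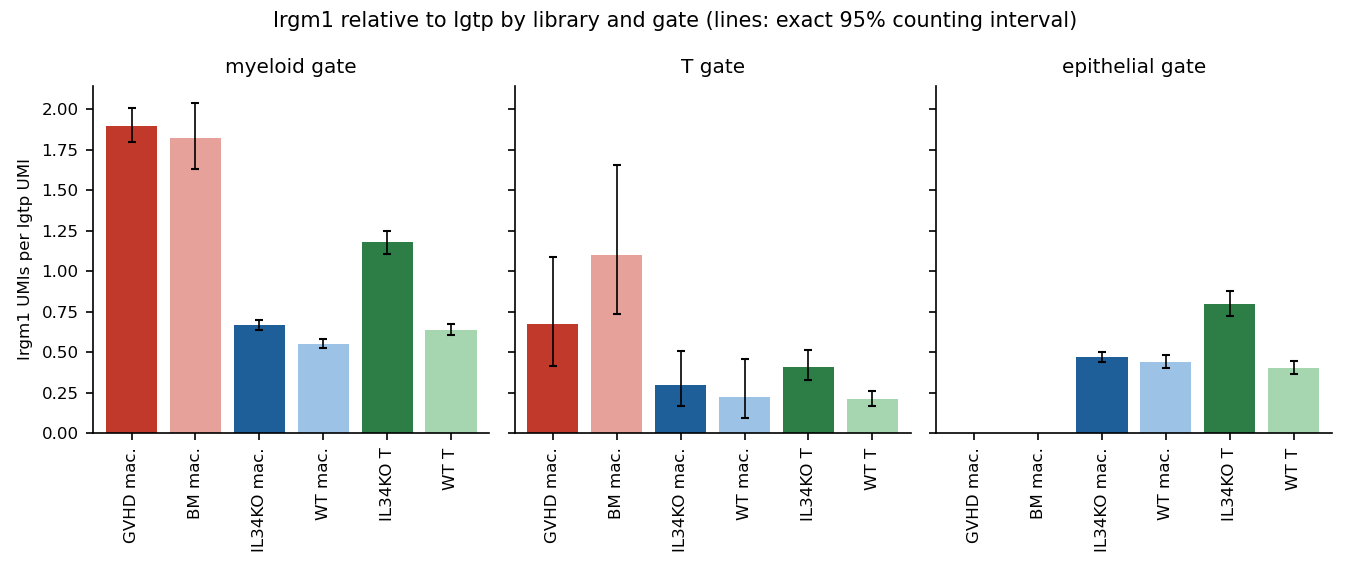
Irgm1 UMIs per Igtp UMI (y axis) by library and gate, with exact 95% intervals for counting error. Myeloid cells of GVHD (1.90) and BM (1.82) lie above those of the WT macrophage library (0.552), and the IL34KO T-cell library lies above its WT partner in each gate.

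To compare cells of different depth, each cell was thinned to 2000 UMIs. Any member was then found in 48.4% of GVHD and 15.4% of BM myeloid cells (87.8% and 46.4% before thinning), in 60.5% of the IL34KO and 53.2% of the WT macrophage library (89.8% and 87.4%), and in 53.2% of the IL34KO and 52.0% of the WT T-cell library (79.9% and 79.7%). T cells stood at 17.2% in both the IL34KO and the WT T-cell library (28.5% and 27.7%), at median depths of 3129 and 2887 UMIs. Those of GVHD stood at 20.1% (13.8 to 27.8) and those of BM at 22.9% (15.4 to 32.0), against 28.8% and 46.7% before thinning. No gate is known to lack the genes, so no share can be set as their background. Iigp1 was found in 25.9% of thinned GVHD and 4.74% of thinned BM myeloid cells, 35.7% of the IL34KO and 30.6% of the WT macrophage library.

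After thinning, 5.14% of GVHD and 1.06% of BM cells had 4 or more family UMIs, against 10.4% in the IL34KO and 7.94% in the WT macrophage library. The variance of family UMIs per cell over their mean was 2.12 in GVHD and 2.46 in BM, and 2.02 to 2.46 over all 6 libraries, so myeloid cells of 1 library varied by more than counting alone gives. In the myeloid gate, each member compared was found at a higher share in cells that held another, though the intervals of several pairs overlapped. Some pairs in the other gates went the other way. In epithelial cells of the IL34KO T-cell library, Irgm2 was found in 8.60% of cells with Irgm1 and 10.6% without it. The values that follow are from myeloid cells. Ifi47 was found in 30.6% of GVHD cells with Iigp1 and 17.9% without it, in 18.4% and 3.91% in BM, in 39.9% and 24.7% in the IL34KO macrophage library, and in 35.7% and 21.5% in the WT one. Iigp1 was found in 42.0% of GVHD cells with Irgm1 and 23.8% without it, and in 48.9% and 29.3% in the WT macrophage library.

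Nos2, the inducible nitric oxide synthase, and Arg1, arginase, mark opposed macrophage states. In thinned cells with a Nos2 but no Arg1 UMI, the family had 700 CPM in GVHD, 701 CPM in the IL34KO and 686 CPM in the WT macrophage library, and 726 CPM in the IL34KO and 695 CPM in the WT T-cell library. In cells with Arg1 but no Nos2 it had 435 CPM in GVHD, 608 CPM in the IL34KO and 431 CPM in the WT macrophage library, and 408 CPM in the IL34KO and 426 CPM in the WT T-cell library. In each of these 5 libraries the Nos2 cells stood above the Arg1 cells. In the IL34KO macrophage library their intervals overlapped (667 to 736 CPM and 545 to 676 CPM). The Arg1 cells of the IL34KO macrophage library stood above those of the other 4. Cells with only Nos2 were 6.10% of GVHD myeloid cells, 27.0% of the IL34KO and 19.5% of the WT macrophage library. BM had 3 cells with only Nos2 and 5 with only Arg1. Cells with neither stood at 450 CPM in GVHD and at 119 CPM in BM. They had 686 CPM in the IL34KO and 550 CPM in the WT macrophage library. In the T-cell libraries they had 520 CPM (IL34KO) and 490 CPM (WT). In the IL34KO macrophage library the interval of the cells with neither (663 to 709 CPM) overlapped that of the Nos2 cells.

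**Figure D5:**
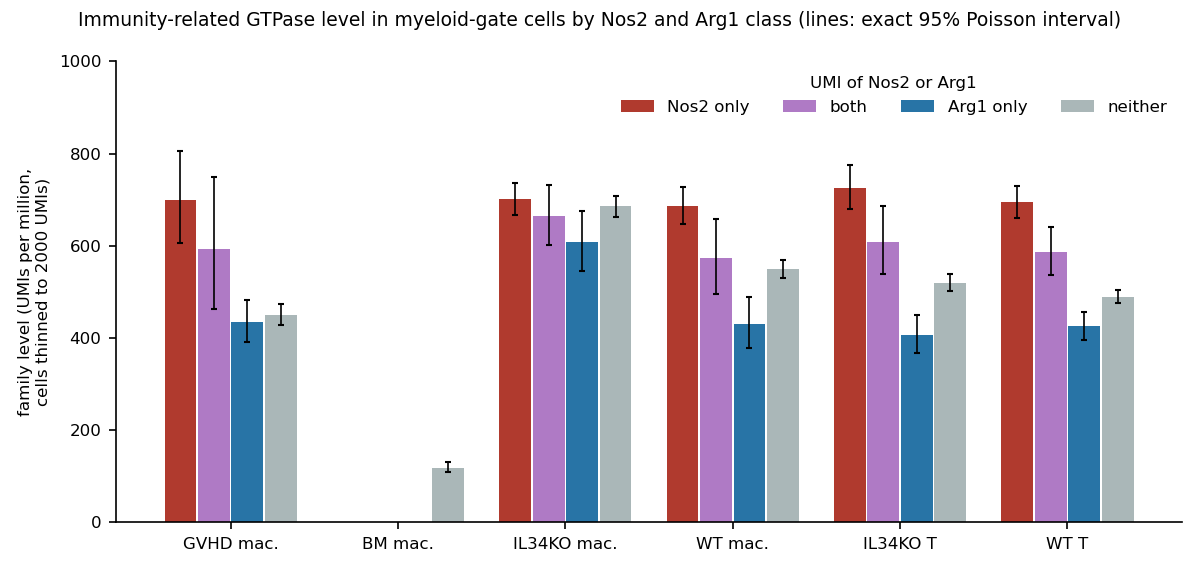
Family level in CPM (y axis) of myeloid cells thinned to 2000 UMIs, by whether a UMI of Nos2, of Arg1, of both or of neither was found, with exact 95% Poisson intervals; classes under 50 cells are not drawn. Cells with only Nos2 lie between 686 and 726 CPM in 5 libraries, and cells with only Arg1 in the IL34KO macrophage library lie at 608 CPM.

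Partners of the family were read from lists. In GVHD over BM myeloid cells, where 15.0% of all genes were called higher and 19.3% lower, 9 of 9 measured guanylate-binding proteins were higher, with a median log2 ratio of 1.17 against -0.01 for all genes. Gbp2 had 624 CPM in GVHD and 82.7 CPM in BM, 7.55-fold, and Gbp5 and Gbp6 were 3.83-fold and 3.23-fold. Of 10 measured genes of interferon-γ signalling, 3 were higher and 0 lower (median 0.32). Irf1, a transcription factor induced by interferon-γ, had 238 CPM in GVHD and 134 CPM in BM, 1.78-fold, and the feedback inhibitor Socs1 had 39.0 CPM in GVHD and 16.5 CPM in BM, 2.36-fold. The receptor chains Ifngr1 (177 CPM in GVHD, 149 CPM in BM) and Ifngr2 (97.4 CPM and 125 CPM) were within 1.5-fold. Other genes related to the family gave 4 higher and 1 lower of 8 (median 0.73), the furthest being Gm4841 at 5.88-fold, F830016B08Rik at 4.22-fold and Gm4951 at 3.97-fold.

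Not every interferon list moved that way. Type I interferon-stimulated genes were 1 higher and 7 lower of 18 in GVHD over BM myeloid cells (median -0.44): Ifit3 had 5.68 CPM in GVHD and 26.2 CPM in BM, Oas2 had 6.72 CPM and 20.1 CPM, and Isg20 had 2.07 CPM and 6.17 CPM. The Atg8 conjugation machinery gave 1 higher (Atg5, 1.54-fold) and 1 lower (Atg10) of 12, with a median of 0.14. In T-gated cells, where 21.6% of all genes were called higher and 18.6% lower, the type I genes were 0 higher and 15 lower of 18 (median -1.59), and guanylate-binding proteins 0 higher and 1 lower (Gbp6) of 8. The fibroblast list, at 1480 CPM in GVHD and 2059 CPM in BM, lay in the same gate, and its part in these counts was not tested. The cytokine gene Ifng had 757 CPM in GVHD and 417 CPM in BM T cells, 1.81-fold. It was among 4 genes higher (with Il12rb2, Il18r1 and Il18rap) and 1 lower (Ifnar2) of 9 for interferon sources and receptors.

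In the IL34KO over the WT macrophage library, where 0.952% of all genes were called higher and 1.66% lower in myeloid cells, few list genes passed 1.5-fold: 0 of 10 interferon-γ signalling genes (median -0.01), 0 of 8 related genes, 0 of 12 Atg8 genes, and 0 higher and 1 lower (Gbp2b) of 9 guanylate-binding proteins (median 0.05). Type I genes gave 1 higher (Isg20) and 1 lower (Oasl1) of 18, with a median of 0.15. Irf1 had 396 CPM in the IL34KO and 342 CPM in the WT library, 1.16-fold, and Ifng in T-gated cells had 983 CPM and 714 CPM, 1.38-fold. Epithelial cells of these libraries gave 2 higher (Gbp5 at 1.56-fold and Gbp8 at 1.51-fold) and 0 lower of 7 guanylate-binding proteins, and 4 higher (Ifit2 at 2.25-fold, Ifit1, Herc6 and Oas3) and 0 lower of 16 type I genes, both with medians of 0.34 against 0.05 for all genes, of which 2.63% were called higher and 1.23% lower. In T-gated cells of the T-cell libraries, 0 of 10 interferon-γ signalling genes and 0 of 9 guanylate-binding proteins were past 1.5-fold, and Ifng had 496 CPM in the IL34KO and 459 CPM in the WT library.

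Across the 16 library and gate units of at least 50 cells, the 6 genes outside the lists whose log2 level was most like that of the family were Cnn3 (Pearson r 0.964), Palld (0.955), Tbc1d13 (0.937), Gca (0.920), Cd24a (0.914) and Plekhg1 (0.914), of 9220 genes ranked. Among the members themselves r ran between 0.41 for Irgm2 with Ifi47 and 0.91 for Irgm2 with Tgtp1. Units of 1 library share its depth and its free RNA. The units also mix the gates, so a gene low in T cells and high in the other gates can rank high. Cnn3, for example, had 2.24 CPM in T-gated, 28.7 CPM in myeloid and 25.6 CPM in epithelial cells of the WT T-cell library. These correlations are therefore descriptions only.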

How the data were processed

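Colon cells were profiled in 6 droplet libraries. The deposited values are UMI counts per gene and cell, made by the authors with Cell Ranger 7.0.1 on mm10, per the submitters' processing notes. Libraries held 43660889 to 114425913 UMIs in 4169 to 18360 barcodes. Kept cells had at least 500 genes and at most 10% mitochondrial UMIs. A gate needed 3 of its markers and 80% of the UMIs of the 3 marker lists in its own list, and the T gate also a UMI of Cd3d, Cd3e, Cd3g or Trac. This purity rule removes many doublets of the 3 classes, and no doublet caller was run. Median depth ran from 6852 to 17239 UMIs in myeloid and from 2887 to 5840 in T cells. BM barcodes also present in GVHD (2502) were dropped, since nearly all had fewer UMIs in BM (2486).

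UMIs were summed per library and gate and given as CPM with exact Poisson intervals. Ratios carry exact conditional binomial intervals and shares Clopper-Pearson intervals, all at 95% and for counting error only. With 1 library per group no count model was fitted and no p-value is given. C1q-high cells had at least 20 C1q UMIs per 10000. Ly6c2 cells had at least 2 Ly6c2 UMIs and were not C1q-high, and cycling cells had at least 2 UMIs of Mki67 and Top2a. The Ly6c2 and cycling cutoffs were not scaled to depth, so membership depends on it. Thinning drew 2000 UMIs per cell without replacement and left out shallower cells. Named genes were the 7 members, Ifng, Ifngr1, Ifngr2, Irf1 and Socs1, 1 further signalling gene that is not reported here, up to 3 further genes of each list in the direction of its median, and the 6 genes with the highest Pearson r of log2(CPM + 1). Where 5 or fewer genes of a list were called in 1 direction, some or all of them are also named. These (Atg10, Ifnar2, Gbp2b, Isg20, Oasl1 and the 4 epithelial type I genes among them), like Tap2, Zfp36 and Snhg6, were chosen after their values were seen. The higher type I gene and the lower related gene in GVHD over BM myeloid cells are counted but not named. The members and lists were chosen with earlier results of these data known. Symbols not found (Gm12250, Gm12187, Gbp11, Mx1, Mx2 and the marker Clec7a) are not analysed here. Alternatives were other gates, filters, floors, scalings and weights, thinning and left-out cells. The ratio scripts were tested on simulated data. No column of per-sample values was left unused (0). Tools were Python 3.11.15, numpy 2.4.6, scipy 1.17.1, pandas 2.3.3 and matplotlib 3.10.9, and edgeR 4.0.16 in R 4.3.3 for TMM factors only.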

Additional observations from a re-analysis of the deposited data

Results flagged for a closer look

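The GVHD over BM log2 ratio went up in the myeloid gate and down in the T gate for several members, with intervals on opposite sides of 0. The myeloid ratio minus the T ratio was 2.28 for Irgm1, 3.86 for Iigp1, 3.47 for Ifi47, 5.55 for Tgtp1 and Tgtp2 together and 3.13 for the family. Each gate had 1 library per group, so the difference was not tested. For Iigp1 the T ratio turned round without stromal-marked cells. The value for Tgtp1 and Tgtp2 together rests on 2 UMIs in the GVHD T gate and 29 in the BM T gate. Without stromal-marked cells these counts were 0 and 11.

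Ifi47 in the myeloid gate was higher in the IL34KO than in the WT macrophage library and lower in the IL34KO than in the WT T-cell library, and these log2 ratios differed by 0.24. That difference was not tested either, and both ratios lie within 1.5-fold.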

How the results depend on the processing

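The family log2 ratio for GVHD over BM in myeloid cells (1.89) stayed above 0 in each alternative run. It was 1.54 with shared barcodes kept in BM, 1.95 without stromal-marked cells (an alternative chosen after seeing the data), 1.96 after thinning, 1.97 with cells weighted equally, 2.06 with TMM and 2.07 with median-of-ratios scaling, and 1.63 without Iigp1. Both scalings set the centre of all genes at -0.17 on the CPM scale. For IL34KO over WT in myeloid cells of the macrophage libraries (0.24) it was 0.22 at 95% gate purity, 0.26 after thinning, 0.27 with equal weights and 0.22 without Iigp1. In T-gated cells of the T-cell libraries (0.02) it was -0.12 without the deepest 5% of cells and -0.15 with equal weights, so its sign is not settled. Of 797 values under alternatives (members, the Tgtp sum and the family in other gates), 719 held, 75 moved and 3 reversed. A value held when it lay within the counting interval of the main value, and only values past 1.5-fold could count as reversed. Thinning moved or reversed 20 of 59 values, and equal weights 17 of 62. The reversals were all in T cells. Iigp1, GVHD over BM, was 0.41 without stromal-marked cells. After thinning, Iigp1 was -0.49 in the macrophage libraries, and Tgtp1 and Tgtp2 together were -1.28 in the T-cell libraries. The cause was not tested. With a minimum of 1 CPM, Tgtp1 joins the higher members in GVHD myeloid cells (7 of 7). No paired analysis was possible because each group has 1 library and the labels carry no replicate numbers. T-gated cells of the macrophage libraries are few, and depth limits their values.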
